A study of Mus musculus with 18 samples.

Results

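DNA replication machinery was followed as 48 genes, taken by name from the deposited TPM table, which gives transcript abundance per length, as the subunits and enzymes that license, open and copy chromosomal DNA. They were 48 of the 25239 genes in that table, and all 48 were among the 12828 genes that reached 1 TPM in at least 3 of the 18 libraries and were tested. Their names group into 7 roles, with 9 genes for origin recognition and licensing, 6 for the MCM2-7 helicase, 9 for helicase activation and firing, 9 for primase and polymerases, 6 for the sliding clamp and its loader, 5 for single-strand binding and strand joining, and 4 for deoxynucleotide supply. The rule uses their names and no measured value.

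The cells were Type D small cell lung cancer (SCLC) cells, that is, mouse tumour cell lines that lyse once p53 is restored, and the experiment asked how loss of cyclophilin A (Ppia) alters their response to p53. Each of the lines 4711-1, 4711-18 and 4716-11 was grown from a tumour in which viral Cre had inactivated Rb1 and Rbl2 and had trapped Trp53, and every line carries FlpO-ER at Rosa26, so that 4-hydroxytamoxifen (4-OHT) releases the trapped Trp53 allele. All libraries therefore share the loss of Rb1 and Rbl2. Cells of each line carried Cas9 and sgBgal, a control guide, or sgPpia#3.2 or sgPpia#4.1, which target Ppia, and they were selected populations in which cyclophilin A was lowered and not absent. Each population received vehicle (Control) or 4-OHT (Restored), and RNA was taken at 72 h. This gave 6 groups of 3 libraries, 1 library for each line in every group. Values in sets of 3 are given below in the order 4711-1, 4711-18 and 4716-11. TPM values divide out transcript length and sum to the same total in each library, so they are relative abundances, and the read depth behind them is unknown.

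A cell prepares an origin by loading the MCM2-7 ring onto DNA with the origin recognition complex, Cdc6 and Cdt1, and geminin (Gmnn) blocks a further round of loading. The Dbf4-dependent kinase Cdc7, together with cyclin-dependent kinase activity, then turns the ring into an active helicase with Cdc45 and GINS, after which primase, the replicative polymerases, the clamp PCNA and its loader RFC copy the strands. Many of these genes are textbook targets of E2F factors, which RB-family proteins restrain, and p53 is known to repress cell cycle genes largely through p21 (Cdkn1a) and the RB family.

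The libraries followed their labels for p53. Trp53 ranged from 5.45 to 8.41 TPM in the 9 Control libraries and from 181 to 236 TPM in the 9 Restored ones, and Ppia ranged from 1551 to 2849 TPM with sgBgal, from 658 to 1233 TPM with sgPpia#3.2 and from 1191 to 1952 TPM with sgPpia#4.1. Of 7 neuroendocrine markers, 3 stayed under 1 TPM in every library, the granule protein Chga among them at no more than 0.156 TPM, while Syp lay between 3.03 and 7.12 TPM and Ncam1 between 6.90 and 29.7 TPM. Of 8 immune, endothelial and fibroblast markers, Cd68 alone passed 1 TPM in every library, and the sum of the 3 immune markers lay between 2.16 and 7.13 TPM in Control and between 21.3 and 39.8 TPM in Restored libraries, with Ptprc and Cd3e under 1 TPM throughout. The part of these markers in the results was not tested.

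One library stood apart from its group. The sgPpia#3.2 Control library of 4711-18 held 369 TPM of Cdkn1a against 99.4 to 171 TPM in the other 8 Control libraries, and 23.0 TPM of the proliferation gene Mki67 against 62.1 to 99.6 TPM, although its Trp53 was at 5.45 TPM. Of the 48 replication genes, 46 were lower there than in both other Control libraries of the line, and their summed level was 3738 TPM against 5175 to 7309.9 TPM in the other 8. The main results that rest on this library are given with and without it.

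Levels of the replication genes spread over more than 2 orders of magnitude before restoration. In the sgBgal Control libraries Pcna, the sliding clamp, was the most abundant at 1557 ± 592 TPM (mean ± SD, n = 3), followed by the ribonucleotide reductase subunit Rrm2 at 485 ± 145 TPM and by the helicase subunits Mcm3 at 293 ± 29.8, Mcm7 at 288 ± 36.2 and Mcm2 at 241 ± 4.19 TPM. The lowest were the origin subunit Orc1 at 11.1 ± 1.32 and the kinase Cdc7 at 10.5 ± 0.935 TPM, which did not differ from each other beyond their spread, and neither did Mcm3 and Mcm7. Subunits of the 6-membered MCM2-7 ring lay within 2.11-fold of each other, from Mcm6 to Mcm3, whereas the licensing genes spanned 16.3-fold from Orc1 to Gmnn and the activation genes 16.8-fold from Cdc7 to Gins4. Within the origin recognition complex, Orc6 stood at 114 ± 20.0 TPM and Orc3 at 11.3 ± 2.11 TPM. Polymerase delta was also uneven, with Pold2 at 189 ± 41.0 and Pold3 at 15.9 ± 0.179 TPM. These ratios are on the TPM scale, which is per transcript length.

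RefSeq promoter windows, which run from 250 bases before to 50 after a transcription start (build GRCm38.p6), were found for 40 of the 48 genes. An E2F-type motif, searched as TTTCCCGC, TTTCGCGC, TTTGCCGC or TTTGGCGC on both strands, occurred in the windows of 16 of the 40 genes (32.7% of their 49 windows, against 2.26% of all 32851 windows). The CHR-type motif TTTGAA, the letters of the cell cycle homology region, occurred on either strand in 7 of the 40 genes (16.3% of their windows, against 17.9% of all windows). The promoters of 3 genes are shown, each from 160 bases before to 30 after the start, 5′ to 3′ on the strand of the gene, with the motif letters in capitals. Dbf4 was chosen after its values were seen, because it had the largest negative fold change with sgBgal, and Mcm5 and Pold3 because they had the most negative fold changes among genes with an E2F-type motif in this stretch. The Dbf4 stretch (chr5:8422687-8422876, minus strand) holds the CHR-type letters on the opposite strand, beginning 3 bases before the start, and no E2F-type motif. In Mcm5 (chr8:75109349-75109538, plus strand) a pair of overlapping E2F-type matches face each other from 153 bases before the start, and in Pold3 (chr7:100121473-100121662, minus strand) the match begins at base 18 after it.
Dbf4: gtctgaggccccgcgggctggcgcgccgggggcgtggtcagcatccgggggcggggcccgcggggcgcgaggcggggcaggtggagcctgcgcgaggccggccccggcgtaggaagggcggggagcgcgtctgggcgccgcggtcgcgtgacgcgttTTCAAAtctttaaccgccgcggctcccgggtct
Mcm5: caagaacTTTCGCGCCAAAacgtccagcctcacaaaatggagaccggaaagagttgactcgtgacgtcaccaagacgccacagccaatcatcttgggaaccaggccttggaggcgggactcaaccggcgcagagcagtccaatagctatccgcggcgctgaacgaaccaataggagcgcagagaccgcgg
Pold3: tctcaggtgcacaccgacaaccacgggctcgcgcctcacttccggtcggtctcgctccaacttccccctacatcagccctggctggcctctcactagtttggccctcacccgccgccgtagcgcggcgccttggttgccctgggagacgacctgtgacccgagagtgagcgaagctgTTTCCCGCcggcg
Windows of Dbf4, Mcm10, Pold2, Tk1 and Rfc4, which had the most negative values with sgBgal among the genes with a window, hold no E2F-type match, and Gins1 was not matched to a window. The median log2 fold change with sgBgal was -0.032 for the 16 genes with an E2F-type match and -0.25 for the 24 without one. For the CHR-type letters it was -0.25 for the 7 genes with a match and -0.051 for the 33 without one. A match describes letters and is no evidence of binding.

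Few replication genes stood far from their Control level 72 h after p53 restoration. With none of the 3 guides was any of the 48 genes called lower or higher, a call being a limma adjusted p under 0.05 with a change of at least 1 on the log2 scale. Among all 12828 genes, 2.17% were called lower and 5.46% higher in the sgBgal cells, 1.31% lower and 4.44% higher in the sgPpia#3.2 cells, and 1.79% lower and 4.30% higher in the sgPpia#4.1 cells. The numbers of replication genes with an unadjusted p under 0.05 were 8, 5 and 7. The share of all genes at an unadjusted p is not given here or below, so such counts are not set against a background. On the adjusted p alone, Rpa1, the largest subunit of the single-strand binding complex RPA, rose with every guide, while 9.86%, 7.62% and 7.16% of all genes passed in that direction. It did not pass with any guide without line 4711-1 or without line 4716-11. The median log2 fold change of the 48 genes was -0.089, 0.15 and 0.015 with the 3 guides, against 0.19, 0.17 and 0.15 for all genes tested, and the SD of the median over the 3 cell lines was 0.31, 0.13 and 0.36. Without the library that stood apart, the sgPpia#3.2 median was -0.15 and again no gene was called. By role, in the order of the opening, the sgPpia#3.2 medians without it were -0.089, 0.18, -0.29, -0.14, 0.062, -0.30 and -0.51. Leaving it out sets 2 Control lines against 3 Restored lines, and with the cell line as a block the medians without it were 0.072, 0.21, -0.18, -0.067, 0.16, -0.042 and -0.26. In bulk RNA, fewer cells in S phase and less of a transcript in each such cell cannot be told apart for any of these genes.

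**Figure D1:**
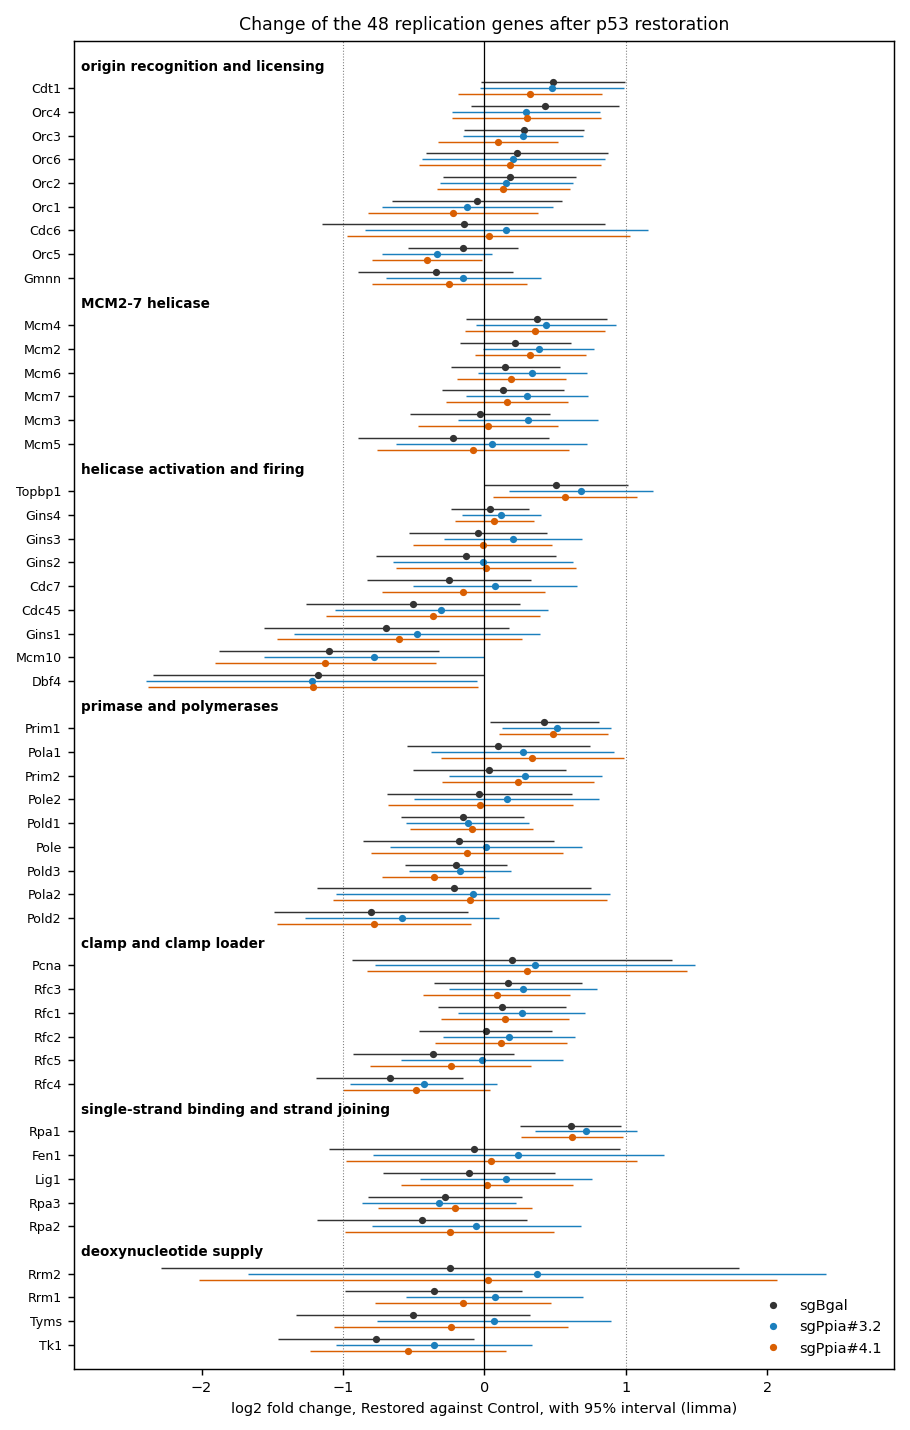
Log2 fold change of each of the 48 replication genes, Restored against Control, on the log2(TPM + 1) scale, with the 95% interval from limma for sgBgal (black), sgPpia#3.2 (blue) and sgPpia#4.1 (orange), grouped by role. Dotted lines mark 1 in either direction. Most intervals cross 0, Dbf4 and Mcm10 lie farthest left with sgBgal at -1.18 and -1.10, and the intervals of Rpa1 lie above 0 with all 3 guides.

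Each line had its own level of many of these genes, and a fit with the cell line as a block, which compares Restored and Control within a line, called a few of them. Dbf4 and Mcm10 were then called lower with sgBgal and with sgPpia#4.1, and Dbf4 with sgPpia#3.2, against 3.32%, 2.92% and 2.21% of all genes. On the adjusted p alone, 6 replication genes were lower and 6 higher with sgBgal (12.0% and 30.2% of all genes), 2 were lower and 6 higher with sgPpia#3.2 (8.86% and 25.3%), and 6 were lower and 3 higher with sgPpia#4.1 (10.8% and 24.3%). These shares lie close to or under those of all genes. Without the library that stood apart, sgPpia#3.2 had Dbf4 called (2.34% of all genes) and, on the adjusted p alone, 2 genes lower and 3 higher (8.11% and 23.3%). Positive changes depended on the scale. Rescaling each library by a median-of-ratios factor moved the median change of all genes from 0.19, 0.17 and 0.15 to about 0. The medians of the 48 genes then became -0.31, -0.044 and -0.16, and 40, 28 and 36 of the 48 had a negative change in place of 29, 17 and 23. With the block and this scaling together, 8 genes were lower and 0 higher on the adjusted p alone with sgBgal (19.7% and 18.9% of all genes), 5 lower and 2 higher with sgPpia#3.2 (16.0% and 16.2%), and 7 lower and 1 higher with sgPpia#4.1 (16.7% and 16.5%). At an unadjusted p under 0.05 limma counted 17, 10 and 10 genes there.

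None of the 9 licensing genes was called with or without the block, and limma gave 0, 0 and 1 of them an unadjusted p under 0.05 with the 3 guides, or 3, 4 and 2 by block. By block Cdt1, Orc3 and Orc4 were higher on the adjusted p alone with sgBgal, and Orc3 with sgPpia#3.2 as well (limma adjusted p = 0.0365, or 0.0622 without the library that stood apart). The 2 largest fold changes with sgBgal lay above 0, and the median of the 9 log2 fold change was 0.18, 0.16 and 0.095 with the 3 guides. Cdt1, which helps load the helicase and is destroyed once S phase begins, was at 169, 150.2 and 145 TPM in the sgBgal Control libraries and at 253, 185 and 218 TPM in the Restored ones. Its sgBgal groups do not overlap, and its log2 fold change was 0.49 (SE 0.24, limma adjusted p = 0.196), with an adjusted p of 0.0449 in the fit by block. Cdt1 levels were 149.9, 139 and 146 TPM before and 305, 126 and 216 TPM after restoration with sgPpia#3.2, and 161, 147 and 136 TPM before and 202, 169 and 185 TPM after it with sgPpia#4.1. Orc4, an ATPase-fold subunit of the origin recognition complex, went from 15.0, 21.2 and 14.0 TPM to 19.8, 32.9 and 17.4 TPM with sgBgal, each line being higher after restoration, and had a log2 fold change of 0.43 (SE 0.25, limma adjusted p = 0.275). Orc4 stood at 14.7, 19.3 and 15.7 TPM before and 20.0, 24.9 and 17.1 TPM after restoration with sgPpia#3.2, and 17.4, 18.1 and 13.5 TPM before and 17.7, 25.8 and 17.9 TPM after it with sgPpia#4.1. Orc1, the subunit that recruits Cdc6, was at 12.5, 10.8 and 9.92 TPM before and 11.2, 9.01 and 11.8 TPM after restoration with sgBgal, and its groups overlap. Its change of -0.051 had a 95% interval of -0.65 to 0.55. Orc1 was at 12.2, 5.83 and 9.58 TPM before and 7.89, 5.11 and 12.7 TPM after restoration with sgPpia#3.2, and 9.54, 10.50 and 9.80 TPM before and 7.23, 7.14 and 11.3 TPM after it with sgPpia#4.1. The licensing inhibitor Gmnn lay lower in 4711-18 in particular, at 194 TPM before and 109 TPM after restoration with sgBgal against 187 and 189 TPM in 4716-11, and its change over the 3 lines was -0.35 (SE 0.26, limma adjusted p = 0.412). Orc5 had changes of -0.15, -0.34 and -0.41 with the 3 guides, and with sgPpia#4.1 it passed the adjusted p in the fit by block (limma adjusted p = 0.028).

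No subunit of the MCM2-7 helicase was called, and in the fit without the block none had an unadjusted p under 0.05 in limma with any guide, against 1, 3 and 2 by block. The median log2 fold change of its 6 subunits was 0.14, 0.33 and 0.18 with the 3 guides, and their single values ran from -0.22 to 0.44. Mcm4, one of the ATPase subunits of the ring, was at 154, 148 and 131 TPM before and 206, 168 and 188 TPM after restoration with sgBgal, without overlap of the groups. Its change was 0.37 (SE 0.23, limma adjusted p = 0.321). Mcm4 was at 144, 81.3 and 143 TPM before and 187, 123 and 181 TPM after restoration with sgPpia#3.2, and 168, 126 and 123 TPM before and 209, 155 and 169.6 TPM after it with sgPpia#4.1, and Mcm4 and Mcm2 passed the adjusted p with sgPpia#3.2 in the fit by block at 0.44 and 0.38 (limma adjusted p = 0.0475 and 0.0296). Neither did so without the library that stood apart. Mcm5, whose E2F-bearing promoter is shown above, was at 149, 171 and 135 TPM before and 155, 99.8 and 140.2 TPM after restoration with sgBgal. The line 4711-18 was lower after restoration and the other two were not, and the change over the 3 was -0.22 (SE 0.32, limma adjusted p = 0.704). Mcm5 stood at 148, 71.4 and 111 TPM before and 127, 66.5 and 155 TPM after restoration with sgPpia#3.2, and 119.6, 167 and 131 TPM before and 142, 101 and 156 TPM after it with sgPpia#4.1. Mcm3 had the smallest change of the ring with sgBgal, from 261, 321 and 296 TPM to 268, 249 and 349.5 TPM, that is -0.029 with a 95% interval of -0.52 to 0.47. Mcm3 was at 219.7, 152 and 241 TPM before and 237, 197 and 331 TPM after restoration with sgPpia#3.2, and 211, 302 and 276 TPM before and 247, 239.5 and 313 TPM after it with sgPpia#4.1. With median-of-ratios scaling the sgBgal values of Mcm2, Mcm6 and Mcm7 were -0.0013, -0.071 and -0.085 in place of 0.22, 0.15 and 0.13, so their sign is not fixed by these data.

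Genes that turn the loaded ring into a working helicase held the most negative changes. Dbf4, the activating subunit of the Cdc7 kinase, was at 83.2, 116 and 164 TPM in the sgBgal Control libraries and at 35.9, 43.1 and 85.5 TPM in the Restored ones. Every line was lower after restoration, although the Restored library of 4716-11 was level with the Control library of 4711-1, so the groups overlap at their edges. The log2 fold change was -1.18 (SE 0.55, limma adjusted p = 0.173), and 0.00162 was the limma adjusted p in the fit by block, where the SE was 0.23. Dbf4 levels were 74.2, 58.5 and 171 TPM before and 32.0, 24.2 and 72.0 TPM after restoration with sgPpia#3.2, and 62.3, 99.4 and 145 TPM before and 21.4, 40.4 and 79.9 TPM after it with sgPpia#4.1, with changes of -1.22 and -1.21 (limma adjusted p by block = 0.00151 and 0.00155). Without the library that stood apart the sgPpia#3.2 value by block was -1.45 (SE 0.24, limma adjusted p = 0.00106). In the 9 pairs of libraries the difference of Dbf4 lay between -1.50 and -0.86. Its catalytic partner Cdc7 had log2 fold changes of -0.25, 0.075 and -0.15 with the 3 guides and was not called. The positive sgPpia#3.2 value came mostly from 4711-18, whose Control is the library that stood apart. Within the sgPpia#3.2 pairs Cdc7 differed by -0.059, 0.26 and 0.023.

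Mcm10, a scaffold that joins the helicase to polymerase alpha, went from 24.4, 31.3 and 20.1 TPM to 12.8, 8.75 and 12.1 TPM with sgBgal, and here every Restored library lay under every Control library. Its change was -1.10 (SE 0.37, limma adjusted p = 0.0598), and the adjusted p was 0.0275 by block and 0.0412 with median-of-ratios scaling, where it was -1.30. Mcm10 was at 21.1, 10.4 and 14.9 TPM before and 11.4, 4.14 and 11.3 TPM after restoration with sgPpia#3.2, and 14.1, 26.9 and 17.2 TPM before and 5.44, 8.67 and 10.9 TPM after it with sgPpia#4.1. With sgPpia#3.2 it was not called in either fit, its value by block being -0.78 (SE 0.36, limma adjusted p = 0.112). With sgPpia#4.1 it was called by block at -1.12 (SE 0.36, limma adjusted p = 0.0288). Gins4, a subunit of the GINS complex that rides with the helicase, had the smallest change of the activation genes, from 179.5, 189 and 162 TPM to 187, 168 and 189.7 TPM with sgBgal. The 95% interval of its log2 fold change was -0.24 to 0.32. Gins4 stood at 183, 169.9 and 162 TPM before and 188, 173 and 199 TPM after restoration with sgPpia#3.2, and 179, 185 and 161 TPM before and 198, 165 and 189 TPM after it with sgPpia#4.1. The GINS subunits differed in their values, since Gins1 had log2 fold changes of -0.69, -0.47 and -0.60 with the 3 guides (limma adjusted p by block = 0.016, 0.0884 and 0.0362), while Gins2 and Gins3 lay between -0.13 and 0.20. Topbp1, which brings the helicase cofactors together, had positive changes of 0.51, 0.68 and 0.57 (limma adjusted p by block = 0.00673, 0.00141 and 0.00422). With the block and median-of-ratios scaling together its values were 0.29, 0.48 and 0.40 and it no longer passed with sgBgal (limma adjusted p = 0.099, 0.0142 and 0.0344). Cdc45, the third part of the active helicase, had log2 fold changes of -0.50, -0.31 and -0.36 and was not called.

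**Figure D2:**
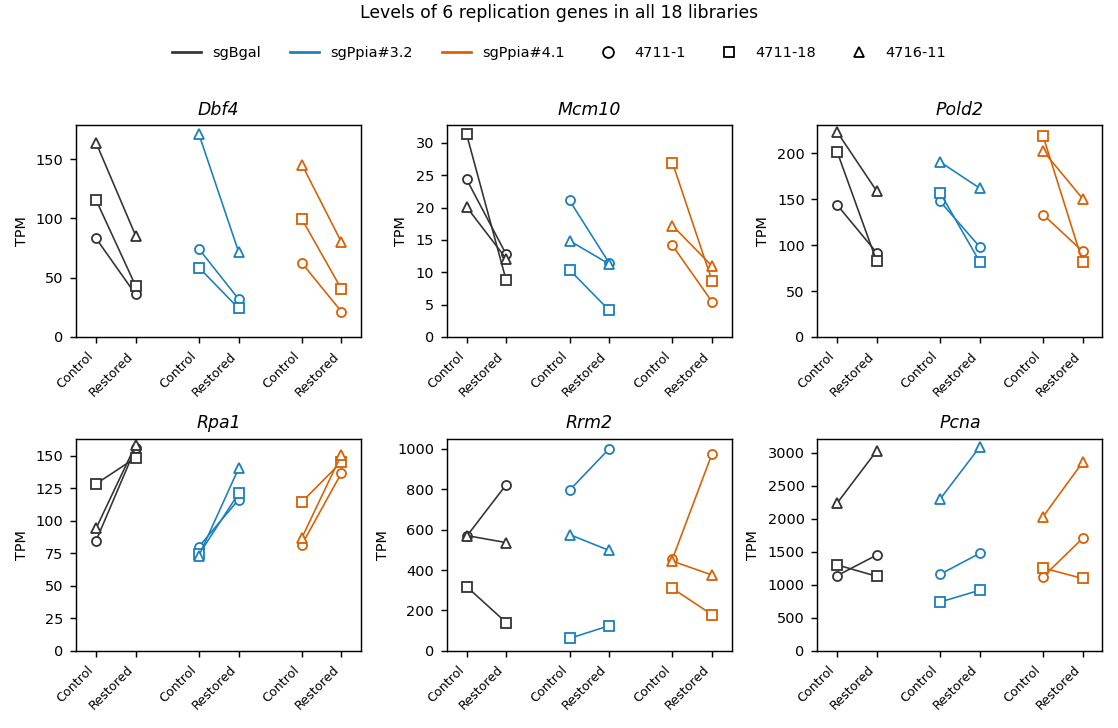
TPM of 6 replication genes in all 18 libraries, with a line joining Control and Restored of 1 cell line (circle 4711-1, square 4711-18, triangle 4716-11) and colours for sgBgal (black), sgPpia#3.2 (blue) and sgPpia#4.1 (orange). Dbf4, Mcm10 and Pold2 go down and Rpa1 goes up along all 9 lines, while Rrm2 and Pcna go up in some pairs and down in others, with Rrm2 of 4711-18 lowest at 61.5 TPM in the sgPpia#3.2 Control library.

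Among primase and polymerase genes, a polymerase delta subunit was lower and a primase subunit higher in every line. Pold2, the accessory subunit of the lagging-strand polymerase delta, was at 144, 201 and 223 TPM before and 91.6, 82.1 and 159 TPM after restoration with sgBgal. All 3 lines were lower and 4711-18 lost the most, so that the line with the middle Control level had the lowest Restored level. The change was -0.81 (SE 0.32, limma adjusted p = 0.113), and it passed the adjusted p by block with all 3 guides (limma adjusted p = 0.00595, 0.0364 and 0.00849). Leaving out the library that stood apart, the sgPpia#3.2 value by block was -0.54 (SE 0.23, limma adjusted p = 0.0941), which did not pass. Pold2 was at 147, 157 and 190.4 TPM before and 98.1, 81.9 and 162 TPM after restoration with sgPpia#3.2, and 133, 219 and 203 TPM before and 93.2, 81.9 and 150.5 TPM after it with sgPpia#4.1. The catalytic subunit Pold1 had log2 fold changes of -0.15, -0.12 and -0.090, and Pold3, which tethers the polymerase to PCNA, had -0.20, -0.17 and -0.36 and passed the adjusted p by block with sgPpia#4.1 (limma adjusted p = 0.0418). Prim1, the catalytic subunit of primase, went from 124, 134 and 124 TPM to 163, 151 and 204 TPM with sgBgal and its groups do not overlap. Its change was 0.42 (SE 0.18, limma adjusted p = 0.136), and it passed the adjusted p by block with all 3 guides (limma adjusted p = 0.0229, 0.0109 and 0.0136) but with none after median-of-ratios scaling, where the changes were 0.20, 0.31 and 0.31. Prim1 stood at 126, 94.4 and 132 TPM before and 167, 139.6 and 198 TPM after restoration with sgPpia#3.2, and 118, 125 and 118 TPM before and 173, 143 and 197 TPM after it with sgPpia#4.1. Pole2, a subunit of the leading-strand polymerase epsilon, was at 25.9, 20.7 and 20.2 TPM before and 27.5, 13.4 and 27.2 TPM after restoration with sgBgal, where only 4711-18 was lower. Its change was -0.035 with a 95% interval of -0.69 to 0.62. Pole2 was at 24.0, 14.8 and 22.0 TPM before and 29.3, 16.1 and 23.3 TPM after restoration with sgPpia#3.2, and 24.0, 20.3 and 18.2 TPM before and 29.4, 15.0 and 18.8 TPM after it with sgPpia#4.1. The other 4 genes, Pola1, Pola2, Prim2 and Pole, lay between -0.22 and 0.34 with the 3 guides, and none passed the adjusted p with or without the block.

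The clamp and most of its loader did not pass the test. Pcna, the clamp that holds polymerases on DNA and a known p53 target, went from 1137, 1299.9 and 2235 TPM to 1449, 1127 and 3027 TPM with sgBgal, and 4711-18 alone was lower. Its change was 0.19 (SE 0.53, limma adjusted p = 0.857), and the spread between lines was larger than that difference. Rfc4, a small subunit of the RFC loader, went from 54.6, 77.1 and 66.3 TPM to 35.1, 34.7 and 55.3 TPM, lower in each line, and had a log2 fold change of -0.67 (SE 0.24, limma adjusted p = 0.0817). By block its adjusted p with the 3 guides was 0.0123, 0.0931 and 0.0619 in limma. Rfc4 was at 53.4, 59.7 and 58.4 TPM before and 40.2, 34.0 and 54.6 TPM after restoration with sgPpia#3.2, and 46.5, 76.5 and 61.9 TPM before and 38.7, 37.9 and 54.1 TPM after it with sgPpia#4.1. Rfc5, another small subunit, was at 70.6, 105 and 87.7 TPM before and 65.4, 52.1 and 88.8 TPM after restoration with sgBgal. It was lower in 4711-1 and 4711-18 and level in 4716-11, and over the 3 lines the change was -0.36 (SE 0.27, limma adjusted p = 0.411). Rfc5 stood at 65.2, 50.6 and 72.7 TPM before and 57.1, 47.99 and 84.2 TPM after restoration with sgPpia#3.2, and 61.9, 92.5 and 78.6 TPM before and 57.0, 55.5 and 86.0 TPM after it with sgPpia#4.1. Rfc2 had the smallest change, from 108, 129 and 131 TPM to 107, 113 and 155 TPM, or 0.010 with a 95% interval of -0.46 to 0.48. Rfc2 was at 102, 100.25 and 112 TPM before and 104, 109.7 and 144 TPM after restoration with sgPpia#3.2, and 89.6, 127 and 122 TPM before and 90.4, 125 and 157 TPM after it with sgPpia#4.1. Rfc1, the large subunit, and Rfc3 had log2 fold changes of 0.13 and 0.16 with sgBgal.

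Among the proteins that bind single strands and join fragments, the subunits of RPA had fold changes of opposite sign. Rpa1 was at 84.7, 129 and 94.2 TPM before and 156, 149 and 159 TPM after restoration with sgBgal, and every Restored library lay above every Control library. It rose by 0.61 (SE 0.17, limma adjusted p = 0.0269) on the log2 scale with sgBgal, by 0.72 (SE 0.17, limma adjusted p = 0.0137) for sgPpia#3.2 and by 0.62 (SE 0.17, limma adjusted p = 0.0298) for sgPpia#4.1. Rpa1 was at 80.2, 74.2 and 73.2 TPM before and 116, 121 and 140.3 TPM after restoration with sgPpia#3.2, and 81.8, 115 and 87.1 TPM before and 137, 145 and 151 TPM after it with sgPpia#4.1. With median-of-ratios scaling and no block the changes were 0.39, 0.52 and 0.45 and none passed (limma adjusted p = 0.182, 0.0902 and 0.144), and without the library that stood apart the sgPpia#3.2 value was 0.70 (SE 0.19, limma adjusted p = 0.0358). Rpa2, the subunit that is phosphorylated when replication stalls, went from 77.4, 79.1 and 80.8 TPM to 60.1, 39.4 and 82.4 TPM with sgBgal, lower in 4711-1 and 4711-18 only, and had a log2 fold change of -0.44 (SE 0.35, limma adjusted p = 0.443). Rpa2 stood at 71.6, 41.4 and 78.1 TPM before and 68.2, 35.7 and 84.4 TPM after restoration with sgPpia#3.2, and 57.3, 77.5 and 77.0 TPM before and 63.5, 40.8 and 78.3 TPM after it with sgPpia#4.1. Rpa3, the smallest subunit, had log2 fold changes of -0.28, -0.32 and -0.21. Fen1, the flap nuclease that trims Okazaki fragments, was at 117, 90.4 and 107 TPM before and 113, 60.4 and 141 TPM after restoration with sgBgal, a change of -0.071 with a 95% interval of -1.10 to 0.96. Fen1 was at 114, 34.2 and 102 TPM before and 115, 43.0 and 132 TPM after restoration with sgPpia#3.2, and 87.5, 87.9 and 99.98 TPM before and 104, 60.6 and 135 TPM after it with sgPpia#4.1. Lig1, which seals the fragments, had log2 fold changes of -0.11, 0.16 and 0.018 and was not called. Without the library that stood apart, and with no block, its sgPpia#3.2 value lay below 0. Within the sgPpia#3.2 pairs it differed by 0.016, 0.14 and 0.31.

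Deoxynucleotide supply had the lowest role median with sgBgal, and its 4 genes were not called, 1, 0 and 0 of them having an unadjusted p under 0.05 in limma with the 3 guides. The median log2 fold change was -0.43, 0.070 and -0.19 with the 3 guides. The positive sgPpia#3.2 value rests on the library that stood apart, without which it was -0.51, or -0.26 by block, with all 4 genes below 0. Tk1, the salvage kinase for thymidine, went from 199, 227 and 205 TPM to 119.6, 87.1 and 179 TPM with sgBgal without overlap, and had a log2 fold change of -0.76 (SE 0.32, limma adjusted p = 0.134). The adjusted p by block was 0.037 with sgBgal. Tk1 was at 229, 117 and 202 TPM before and 149.9, 93.9 and 182 TPM after restoration with sgPpia#3.2, and 163, 259 and 189 TPM before and 151, 102 and 168 TPM after it with sgPpia#4.1. Tyms, which makes thymidylate from scratch, went from 47.8, 53.8 and 60.4 TPM to 34.3, 26.9 and 57.3 TPM with sgBgal, and its change was -0.51 (SE 0.39, limma adjusted p = 0.428). Tyms stood at 43.7, 19.9 and 60.1 TPM before and 38.1, 28.9 and 55.3 TPM after restoration with sgPpia#3.2, and 31.4, 56.5 and 52.1 TPM before and 35.8, 30.1 and 51.7 TPM after it with sgPpia#4.1. Rrm2, the subunit that limits ribonucleotide reductase in S phase, was at 567, 318 and 571 TPM before and 823, 139.9 and 536 TPM after restoration with sgBgal, higher in 4711-1, lower in 4711-18 and nearly level in 4716-11. Its change over the 3 lines of -0.24 had a 95% interval of -2.29 to 1.80, the widest among the 48 genes. Rrm2 was at 795, 61.5 and 576 TPM before and 1000.4, 124 and 497 TPM after restoration with sgPpia#3.2, and 455, 309 and 444 TPM before and 976, 179 and 375 TPM after it with sgPpia#4.1. The large subunit Rrm1 had log2 fold changes of -0.36, 0.072 and -0.15.

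Some genes lay on 1 side in every pair of libraries. Of the 48, 7 were lower in the Restored library than in its Control in all 9 pairs of cell line and guide, namely Dbf4, Gins1, Mcm10, Pold2, Pold3, Rfc4 and Tk1, where 12.8% of all genes tested were. Another 7 were higher in all 9, namely Mcm2, Mcm4, Orc3, Orc4, Prim1, Rpa1 and Topbp1, where 30.8% of all genes were. Without the sgPpia#3.2 pair of 4711-18 the same 7 genes were lower in the other 8 pairs (14.8% of all genes) and Cdt1 joined the higher ones (33.8%). After median-of-ratios scaling 11 genes were lower in all 9 pairs, the 7 above with Cdc45, Orc5, Rfc5 and Rpa3, and none was higher in all 9, while 20.3% of all genes were lower and 20.8% higher in all 9.

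**Figure D3:**
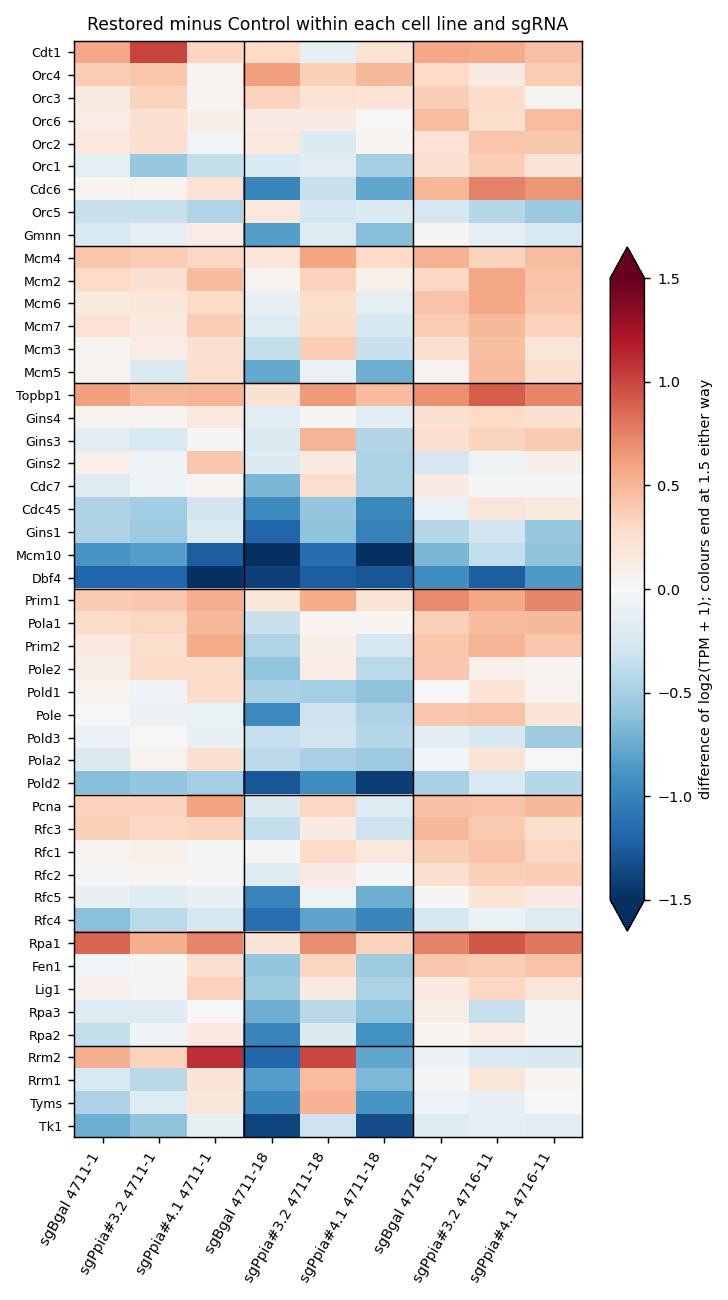
Restored minus Control of log2(TPM + 1) for each of the 48 replication genes (grouped by role) in the 9 pairs of cell line and guide, with blue for lower and red for higher and colours ending at 1.5. Dbf4, Mcm10 and Pold2 are blue in every column and Rpa1 and Topbp1 red in every column, and the columns of 4711-18 with sgBgal and sgPpia#4.1 hold more blue than the rest, with 37 of 48 genes lower in each.

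Over its 3 guide populations, line 4711-18 had the lowest median response of the replication genes. Taking the 3 guide populations of a line as its samples, in a fit chosen after the lines were seen to differ, the median log2 fold change of the 48 genes was 0.079 in 4711-1, -0.27 in 4711-18 and 0.25 in 4716-11, against 0.13, 0.22 and 0.15 for all genes. The sgPpia#3.2 population of 4711-18, whose Control is the library that stood apart, had a median of 0.11 within its pair, above the 0.028 of 4711-1, while the sgBgal and sgPpia#4.1 populations of 4711-18 had -0.37 and -0.45. Dbf4 was called lower in each line, at -1.29, -1.31 and -1.01 (limma adjusted p = 0.000928, 0.00046 and 0.00446). It was the only gene called in 4711-1 (2.82% of all genes were called lower) and in 4716-11 (2.98%). In 4711-18, Mcm10 at -1.47, Pold2 at -1.21 and Tk1 at -1.01 were called as well (limma adjusted p = 0.00332, 4.27e-07 and 0.0012), where 4.16% of all genes were called lower. On the adjusted p alone, 5 genes were lower and 4 higher in 4711-1 (10.3% and 23.2% of all genes), 14 lower and 3 higher in 4711-18 (14.1% and 36.9%), and 3 lower and 14 higher in 4716-11 (11.9% and 28.2%). The higher counts depended on the scale, since median-of-ratios scaling gave 6 lower and 3 higher in 4711-1 (16.0% and 16.5% of all genes), 24 lower and 1 higher in 4711-18 (23.5% and 23.7%), and 6 lower and 3 higher in 4716-11 (20.6% and 19.5%). With that library left out, 4711-18 had 31 lower and 1 higher (15.6% and 38.0%). The genes that were lower in 4711-18 by this rule include Gins1 at -0.94, Rfc4 at -0.97 and Cdc45 at -0.83, and those higher in 4716-11 include Rpa1 at 0.82, Topbp1 at 0.77 and Prim1 at 0.67. These p-values rest on the spread between guide populations within a line, pooled over the 3 lines and both states. The populations of a line carry different guides and are not replicates of 1 condition, and each line is 1 tumour.

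By role, the medians in 4711-1, 4711-18 and 4716-11 were 0.088, -0.35 and 0.18 for primase and polymerases and 0.077, -0.29 and 0.21 for single-strand binding and joining. They were 0.22, -0.023 and 0.42 for the MCM2-7 helicase, 0.020, -0.11 and 0.35 for the clamp and its loader, -0.12, -0.29 and 0.041 for helicase activation, -0.16, -0.40 and -0.12 for deoxynucleotide supply and 0.12, -0.0043 and 0.27 for licensing, and 4711-18 was lowest in each role. Without the library that stood apart the medians of 4711-18 were, in the order of the opening, -0.082, -0.24, -0.63, -0.44, -0.35, -0.68 and -1.01, again lowest in each role, so how far the roles lay apart rests on that library. Medians over roles carry no test. With median-of-ratios scaling the line medians of the 48 genes were -0.073, -0.51 and 0.060, so the sign for 4711-1 is not fixed, whereas 4711-18 stayed lowest.

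In the fit by line, chosen after the lines were seen to differ, the difference between lines was tested gene by gene, and 2 genes passed. Between 4716-11 and 4711-18 the response of Pold2 differed by 0.82 (SE 0.16, limma adjusted p = 0.0105) and that of Rfc4 by 0.79 (SE 0.16, limma adjusted p = 0.013), both higher in 4716-11, while 2.52% of all genes passed. Without the sgBgal or the sgPpia#4.1 populations neither passed. The log2 fold change of Pold2 was -0.58, -1.21 and -0.38 in the 3 lines and that of Rfc4 was -0.43, -0.97 and -0.18. No replication gene passed between 4711-1 and 4711-18 (2.10% of all genes) or between 4716-11 and 4711-1 (1.47%), where limma counted 9 and 0 genes at an unadjusted p under 0.05. The library that stood apart belongs to 4711-18 and decides how many genes pass. Without it, 18 replication genes differed between 4711-1 and 4711-18 (6.45% of all genes), 27 between 4716-11 and 4711-18 (7.64%) and again 0 between 4716-11 and 4711-1 (1.95%, with 5 at an unadjusted p under 0.05), and every gene that passed responded lower in 4711-18. That fit sets 3 Restored populations of 4711-18 against 2 Control ones. With the sgPpia#3.2 populations left out of every line, which keeps the groups balanced, 3 genes differed between 4711-1 and 4711-18 (2.29% of all genes) and 7 between 4716-11 and 4711-18 (3.33%), again all lower in 4711-18, and 6 genes were called lower in 4711-18 (5.24%). Without the Control library alone the median of that line was -0.45, against 0.23 for all genes, and 10 replication genes were called lower where 5.08% of all genes were, namely Cdc45, Cdc6, Dbf4, Gins1, Mcm10, Pold2, Rfc4, Rpa2, Rrm2 and Tk1.

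**Figure D4:**
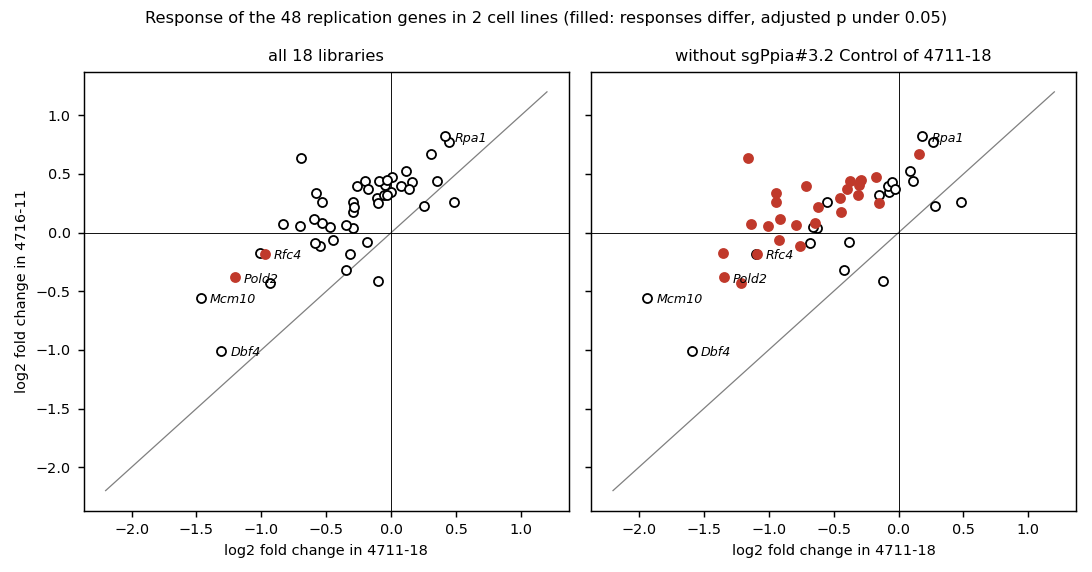
Log2 fold change of the 48 replication genes in 4716-11 (vertical) against 4711-18 (horizontal), with all 18 libraries on the left and without the sgPpia#3.2 Control library of 4711-18 on the right. Points above the grey diagonal have a higher response in 4716-11. Filled points passed the test of the difference, 2 on the left and 27 on the right, where 3 Restored populations of 4711-18 are set against 2 Control ones.

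No replication gene was called between cells with Ppia guides and cells with sgBgal. In none of the 4 comparisons of sgPpia#3.2 or sgPpia#4.1 with sgBgal, in Control or in Restored libraries, was any of the 48 genes called, and the percent called among all genes was 0 in each. The same held for the difference of the p53 response between each Ppia guide and sgBgal (0 genes by limma). Ppia itself was among the genes tested and was not called. Its Control levels were 2704, 2575 and 2849 TPM with sgBgal and 1073, 658 and 1207 TPM with sgPpia#3.2. These comparisons missed that difference, so the absence of a call does not show that a replication gene was unchanged. Unadjusted p under 0.05 occurred for 2 of the 48 genes in the sgPpia#3.2 Control comparison, Mcm3 at -0.54 and Rpa1 at -0.41, and for 0 in the other 5. With the cell line as a block that comparison had 12 such genes, and no gene passed the adjusted p. Leaving out the library that stood apart, the 2 genes became 0, and the 12 genes by block became 1. In Control libraries the median difference from sgBgal was -0.30 with sgPpia#3.2 (46 of 48 genes below 0) and -0.11 with sgPpia#4.1 (48 of 48), against -0.076 and -0.040 for all genes, of which 63.9% and 62.8% lay below 0. Without the library that stood apart the sgPpia#3.2 median was -0.11 with 37 of 48 genes below 0, and by block it was -0.20 with 40. Median-of-ratios scaling left 40 and 39 of 48 genes below 0 with the 2 guides, and without line 4711-1 the sgPpia#4.1 median was -0.085, against -0.086 for all genes. The largest difference was that of Mcm10 with sgPpia#3.2 in Control, -0.71 with a 95% interval of -1.49 to 0.075, and without that library Mcm10 stood at -0.47 with an interval of -1.32 to 0.39. Intervals of this width do not exclude changes of Mcm10 beyond 2-fold. In Restored libraries the medians were -0.14 and -0.076, with 35 and 33 of 48 genes below 0. For all genes they were -0.086 and -0.074, with 66.2% and 67.6% below 0. The difference of the response had a median of 0.17 with sgPpia#3.2 and 0.064 with sgPpia#4.1, against -0.0063 and -0.032 for all genes. The sgPpia#3.2 median became -0.0013 without that library, or 0.086 without it by block, with 37 of 48 genes above 0.

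Proliferation genes outside the replication list had far larger fold changes. Of 8 such markers, 6, 5 and 6 were called lower in the sgBgal, sgPpia#3.2 and sgPpia#4.1 cells, and their median log2 fold change was -2.53, -2.08 and -2.51. Leaving out the library that stood apart, 5 were called lower with sgPpia#3.2 (1.42% of all genes were called lower and 4.79% higher) and their median was -2.52, or -2.21 by block with 6 called lower. Ccna2, the cyclin of S and G2 phase, went from 84.5, 150.4 and 80.1 TPM to 13.8, 6.22 and 20.1 TPM with sgBgal, a change of -2.96 (SE 0.53, limma adjusted p = 0.00197). Ccnb1, the mitotic cyclin, had a log2 fold change of -2.74 (SE 0.55, limma adjusted p = 0.00472), and Birc5, a subunit of the chromosomal passenger complex, one of -2.60 (SE 0.60, limma adjusted p = 0.0112). The markers that were not lower are the cyclins of S phase entry, Ccne1 at 1.11 (SE 0.53, limma adjusted p = 0.181) and Ccne2 at 0.81 (SE 0.34, limma adjusted p = 0.125). With the cell line as a block Ccne1 was called higher (1.11 (SE 0.30, limma adjusted p = 0.00991)). Other replication lists held few calls. Of 24 further replisome and origin factors, 1 was called lower with sgBgal, Fbxo5, an inhibitor of the anaphase-promoting complex, at -1.25 (SE 0.35, limma adjusted p = 0.0304), then 0 with sgPpia#3.2 (6 at an unadjusted p under 0.05 in limma) and 1 with sgPpia#4.1. Of 6 genes for chromatin replication, 1 was called lower with sgBgal, the histone chaperone Asf1b at -1.04 (SE 0.32, limma adjusted p = 0.0443), and 0 with either Ppia guide (2 each at an unadjusted p under 0.05 in limma). None of 10 other genes for deoxynucleotide supply was called with any guide, 2 having an unadjusted p under 0.05 in limma with each. On the adjusted p alone 2 of them were higher with sgBgal, Rrm2b, a p53-inducible reductase subunit, at 0.87 (SE 0.27, limma adjusted p = 0.0479) and the mitochondrial kinase Tk2 at 0.96 (SE 0.25, limma adjusted p = 0.02). With sgPpia#3.2 it was Tk2, at 0.84 (SE 0.25, limma adjusted p = 0.0454), which did not pass without the library that stood apart (limma adjusted p = 0.051), and with sgPpia#4.1 it was none. By block both genes passed with all 3 guides, and without that library Tk2 alone did so with sgPpia#3.2. Of 11 E2F and RB family genes, 1 was called higher with every guide, Rb1 itself, which went from 4.37, 7.52 and 3.49 TPM to 17.1, 28.2 and 14.7 TPM with sgBgal, a change of 1.78 (SE 0.38, limma adjusted p = 0.00685). Reads of Rb1 can come from exons outside the deleted part, so they do not speak to RB protein. The block called E2f2, an activating E2F, lower with sgBgal (-1.02 (SE 0.28, limma adjusted p = 0.0106)).

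**Figure D5:**
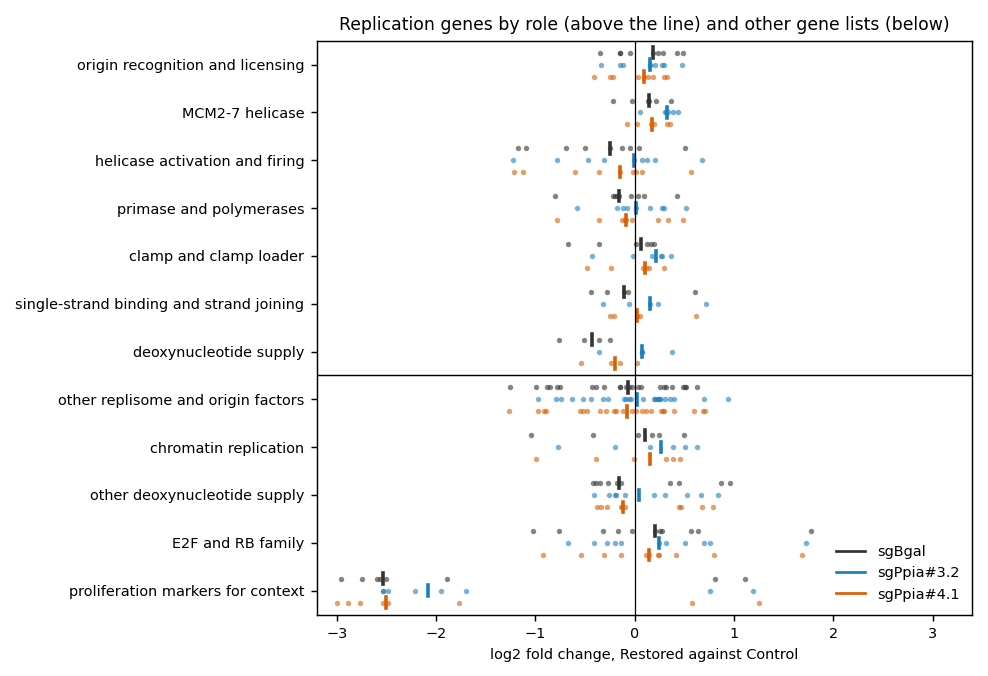
Log2 fold changes, Restored against Control, of single genes (points) and their median (bar) for the 7 roles of the 48 replication genes (above the line) and for 5 other lists (below it), with sgBgal in black, sgPpia#3.2 in blue and sgPpia#4.1 in orange. Role medians stay between -0.43 and 0.33, while the median of the 8 proliferation markers lies between -2.53 and -2.08.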

How the data were processed

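RNA of 3 Type D mouse SCLC lines was sequenced after CRISPR targeting and 72 h of vehicle or 4-OHT. The authors deposited 1 table of TPM values per gene. The submitters' processing notes name bcl2fastq 2.17, HISAT2, mm10 and GRCm39, and the counting tool and annotation are not given in the sources used here. TPM keeps no depth, so no counting error is given. All 18 columns were matched to samples by title. Groups were compared with limma 3.58.1 (R 4.3.3) on log2(TPM + 1), 1 mean for each of the 6 groups, for genes that reached 1 TPM in 3 or more libraries, with Benjamini-Hochberg adjustment over all 12828 genes. Fold changes on this scale understate those of low genes. A call needed an adjusted p under 0.05 and a log2 fold change of at least 1 in size, and a difference of responses the adjusted p alone. Each line appears once in every group, and same-line libraries deviated together (correlation at least 0.58 over 45 pairs of libraries of 1 line, and at least 0.27 over the 48 genes), so the fit with cell line as replicate block is printed where it changes a call. In the fit without the block, p-values rest on the spread between the same 3 lines, pooled over the 6 groups. The block removes each line's own level and treats the 3 guide populations of a line as independent. Where a line responds alike over its guides, p-values by block can be too small. Full values were given to the 2 genes with the largest and the 1 with the smallest change with sgBgal in each role. The genes, lists and roles were chosen with earlier results of these data known. The fits were run on simulated data in which the restoration effect was the same in every line. A minimum recovery was required of the fit by block only, and responses that differ between lines were not simulated. Promoters are from RefSeq.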

Additional observations from a re-analysis of the deposited data

Results flagged for a closer look

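Pold2 and Rfc4 were the replication genes whose response to p53 differed between cell lines in a test of the difference itself, 4716-11 minus 4711-18. For Pold2 the difference of log2 fold changes was 0.82 (SE 0.16, limma adjusted p = 0.0105), and it was 0.96 (limma adjusted p = 0.000447) without the sgPpia#3.2 Control library of 4711-18. Leaving out the sgBgal or the sgPpia#4.1 populations gave 0.84 and 0.75 with limma adjusted p of 0.357 and 0.354, so the call was lost without either, and leaving out the sgPpia#3.2 populations gave 0.89 (limma adjusted p = 0.0239). For Rfc4 the difference was 0.79 (limma adjusted p = 0.013), 0.91 (limma adjusted p = 0.00116) without that library, and 0.75 and 0.79 without the sgBgal and the sgPpia#4.1 populations (limma adjusted p = 0.392 and 0.333). Without the sgPpia#3.2 populations it was 0.84 (limma adjusted p = 0.0334). Both genes were lower after restoration in each of the 3 populations of each line. The lines were compared after their medians were seen to differ, and line and tumour cannot be told apart.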

How the results depend on the processing

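No call changed direction under any alternative. Counts of replication genes called lower, 0 in each guide by the planned fit, became 2, 1 and 2 for sgBgal, sgPpia#3.2 and sgPpia#4.1 with the replicate block, 3, 1 and 2 with the replicate block and median-of-ratios scaling together, 1 for sgBgal with that scaling alone and 1 for sgBgal in a fit of only the groups compared. The replicate block without the sgPpia#3.2 Control library of 4711-18 gave 1 for sgPpia#3.2. On the adjusted p alone 1 gene, Rpa1, was higher with each guide, and it became 0 in all 3 with median-of-ratios scaling, in a fit of only the groups compared, without line 4711-1 and without line 4716-11. The sgPpia#3.2 median of 0.15 became -0.044 with the scaling, with or without the block, -0.15 without that library and -0.026 without it by block, and leaving out 1 line gave 0.080 to 0.20. Leaving out 1 line turned the sign of the other medians, with -0.20 to 0.12 for sgBgal (0.12 without 4711-18) and -0.14 to 0.18 for sgPpia#4.1 (0.18 without 4711-18). In the fit by line, scaling gave 2 genes called lower in 4711-1 and 7 in 4711-18, and leaving out the library gave 10 in 4711-18. Leaving out 1 guide population gave 1 to 2 in 4711-1, 3 to 6 in 4711-18 and 0 to 1 in 4716-11. For 4711-1 minus 4711-18, the guide as a block or scaling gave 1, and leaving out a library or population gave 0 to 18. For 4716-11 minus 4711-18 that range was 0 to 27. Shares of all genes called are not given for the scaled fits or the fit of only the groups compared. Counts of calls from those fits are therefore not set against a background of all genes. The causes were not tested. Of 735 further values of single genes under these alternatives, 673 kept their side of the threshold or moved by less than the spread between lines, 48 moved by more and 14 became calls. Pseudocount, filters and trended or robust limma kept the counts by guide. Low depth could not be assessed from TPM.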
